A study of Physcomitrium patens with 6 samples.

Results

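Of the 32926 gene IDs counted in moss protonema, 92 had an mRNA level that was high after 30 minutes of abscisic acid (ABA) and had dropped again by 60 minutes. These 92 were chosen by the counts themselves. An ID had to average at least 2 CPM (reads per 1000000 reads counted in genes, with library totals scaled by the trimmed mean of M-values, TMM) at 30 minutes, its ratio of mean CPM at 30 over 0 minutes had to be at least 1.8, its ratio at 60 over 30 minutes had to be at most 0.55, and both 30 minute libraries had to lie above both libraries at 0 and both at 60 minutes. The rise and the fall are therefore how the genes were found, not a result, and they are given below as a description; counts of calls in those 2 contrasts are listed once, for completeness, and support nothing. Intervals on those ratios show counting error only. The same 6 libraries supplied every value, so no library is left that could check the pattern independently.

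The tissue was protonema of Physcomitrium patens, the filamentous juvenile stage of the moss, grown for 10 days on plates, sonicated and kept for 3 days in shaken liquid culture. ABA was then added, and the cultures were collected after 30 or 60 minutes; each of the 3 times (0, 30 and 60 minutes) had 2 biological replicate libraries. The labels give no genotype, strain or mutation for any group. The concentration is stated as 10 µM in one place and 10 mM in another, and this was not settled. Control cultures received the carrier methanol, but the sources used here do not give how long before collection, so an effect of ABA and an effect of time after an addition and handling cannot be told apart. Gene counts per library summed to between 12450250 and 17822775, with the fewest in the second 30 minute library.

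ABA is the hormone with which land plants meet drying, cold and osmotic stress. It is sensed by soluble receptors that, once bound, block a group of protein phosphatases and so release protein kinases and the transcription factors they phosphorylate; in moss protonema the pathway is known for giving tolerance to drying and freezing. Transcripts that climb and drop again soon after a stimulus are known in many eukaryotes as early-response genes; they often encode regulators, and their mRNAs are often broken down quickly. Which proteins the 92 IDs encode is not known here, because the count files carry no names and none of the 32926 IDs matched the 27567 genes of the RefSeq table used (assembly ASM5946719v1). No function, position or sequence is therefore given. Only 4 members are given by ID, and the others by their rank in mean CPM at 30 minutes. CPM counts reads without regard to transcript length, so a rank orders genes by reads and not by molecules.

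A fall by 60 minutes was the less common course among genes that rose early. The level, rise and order requirements against 0 minutes were met by 1902 IDs, and 92 of these (4.84%) also met the fall. Across the 1902, the median ratio of 60 over 30 minutes was 1.40, and 1404 had a ratio above 1. A further 406 lay between 1 and the limit of 0.55. These values use TMM scaling and depend on it: all requirements were met by 160 IDs with total counts and by 81 with upper-quartile factors. The mirrored rule, a fall by 30 minutes to at most 0.55 of the 0 minute level followed by a rise of at least 1.8-fold, found 91 IDs. The limits cut through a continuous range of values. The nearest member inside had a 30/0 ratio of 1.829 and the nearest ID outside 1.795; for the 60/30 ratio the values were 0.547 and 0.551, and for the mean CPM at 30 minutes 2.196 and 1.895. Missing a single requirement kept out 205 IDs for the rise, 292 for the fall, 188 for the level and 1 for the order of libraries.

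Together the 92 IDs held 0.121% and 0.112% of gene counts in the 0 minute libraries, 0.53% and 0.517% at 30 minutes, and 0.181% and 0.186% at 60 minutes. The summed CPM of the members averaged 1010 ± 22.6 before ABA, 5017 ± 105 after 30 minutes and 2204 ± 199 after 60 minutes (SD over n = 2 libraries a time). Each 30 minute library stood well above the rest, and both 60 minute libraries remained above both 0 minute libraries. The sum was uneven, since the 10 IDs with the most CPM at 30 minutes made up 52% of it at that time. IDs with identical or closely matching counts, some of them in these 10, entered the sums and shares separately. The same reads may therefore have been added more than once.

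**Figure D1:**
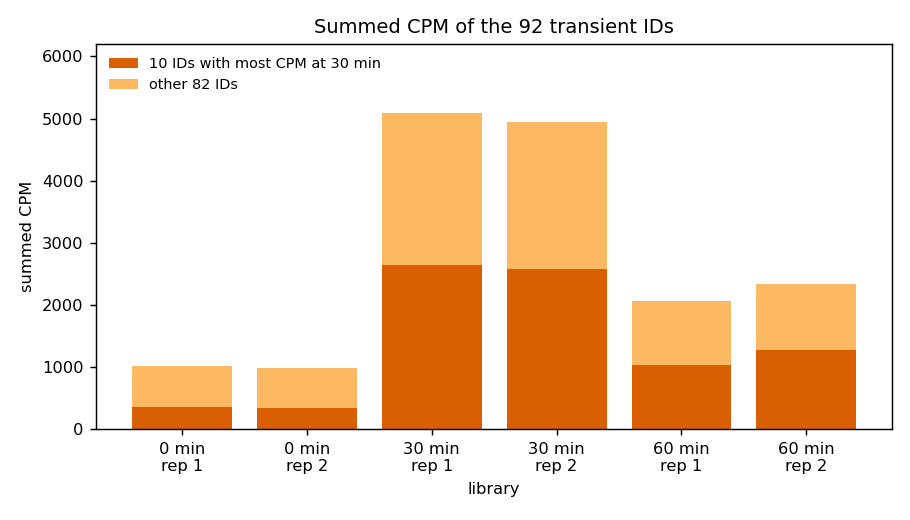
Summed CPM (vertical axis) of the 92 transient IDs in each of the 6 libraries (horizontal axis), with the 10 IDs of highest mean CPM at 30 minutes in the dark part of each bar and the other 82 in the light part. The bars reach 1026 and 994 CPM at 0 minutes, 5091 and 4943 CPM at 30 minutes, and 2064 and 2345 CPM at 60 minutes.

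The members spanned a wide range of read levels. At 30 minutes 15 of them had at least 100 CPM, 50 had 10 to 100 CPM and 27 had 2 to 10 CPM, with a median of 24.8 CPM; every 30 minute value of a member rested on at least 29 reads. At 0 minutes their median was 6.41 CPM, and the highest was 62.0 CPM. Fewer than 3 reads in a 0 minute library were found for 2 members, and no read at all in either for 1.

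The member with the most CPM had 35.6 and 34.1 CPM at 0 minutes, 528 and 519 CPM at 30 minutes, and 206 and 277 CPM at 60 minutes. Its libraries fell into 3 separate levels, with the 60 minute pair between the others. It was 15-fold higher at 30 than at 0 minutes, and at 60 minutes it had lost 57.7% of that rise.

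Next in rank came Pp3c17_14000 and Pp3c17_14020, which were also the 2 IDs with the largest 30/0 ratio among members with at least 3 reads in each 0 minute library. Pp3c17_14000 had 0.287 and 0.271 CPM at 0 minutes, 321 and 315 CPM at 30 minutes, and 138 and 165 CPM at 60 minutes. Pp3c17_14020 had 0.239 and 0.271 CPM at 0 minutes, 320 and 314 CPM at 30 minutes, and 139 and 167 CPM at 60 minutes. Both went from near silence to among the most read members and stayed far above the 0 minute level, although at 60 minutes they were 52.2% and 51.8% below their 30 minute level. The size of the rise is uncertain, because it rests on 11 and 10 reads over both 0 minute libraries: the ratio of 30 over 0 minutes was 1140 for Pp3c17_14000 (exact 95% counting interval 637 to 2290) and 1250 for Pp3c17_14020 (681 to 2610), intervals that cover counting error only. Their counts matched within 5% plus 2 reads in every library, so the same reads may have been counted for both, and they are not shown to be separate responses.

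Among the other members of the first 10, the fourth had 49.5 and 45.0 CPM at 0 minutes, 242 and 249 CPM at 30 minutes, and 47.6 and 74.3 CPM at 60 minutes. One of its 60 minute libraries lay within the 0 minute range and the other above it. The fifth resembled the pair above, with 0.955 and 1.62 CPM at 0 minutes, 239.5 and 238 CPM at 30 minutes, and 101 and 108 CPM at 60 minutes, a 185-fold rise in mean CPM. The sixth started high, with 56.1 and 47.5 CPM at 0 minutes, 237 and 238 CPM at 30 minutes, and 127 and 128 CPM at 60 minutes. The fifth and sixth started far apart. Their nearly equal CPM at 30 minutes follows from the ranking by that value and is no result. The seventh and eighth had identical counts in all 6 libraries, 63 and 60.9 CPM at 0 minutes, 236 and 224 CPM at 30 minutes, and 90.7 and 120 CPM at 60 minutes. The ninth had 40.6 and 33.1 CPM at 0 minutes, 142 and 128 CPM at 30 minutes, and 41.6 and 60.7 CPM at 60 minutes. The tenth came back to its start, with 55.2 and 53.9 CPM at 0 minutes, 134.5 and 132 CPM at 30 minutes, and 53.4 and 55.9 CPM at 60 minutes. Its 0 and 60 minute libraries overlapped.

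**Figure D2:**
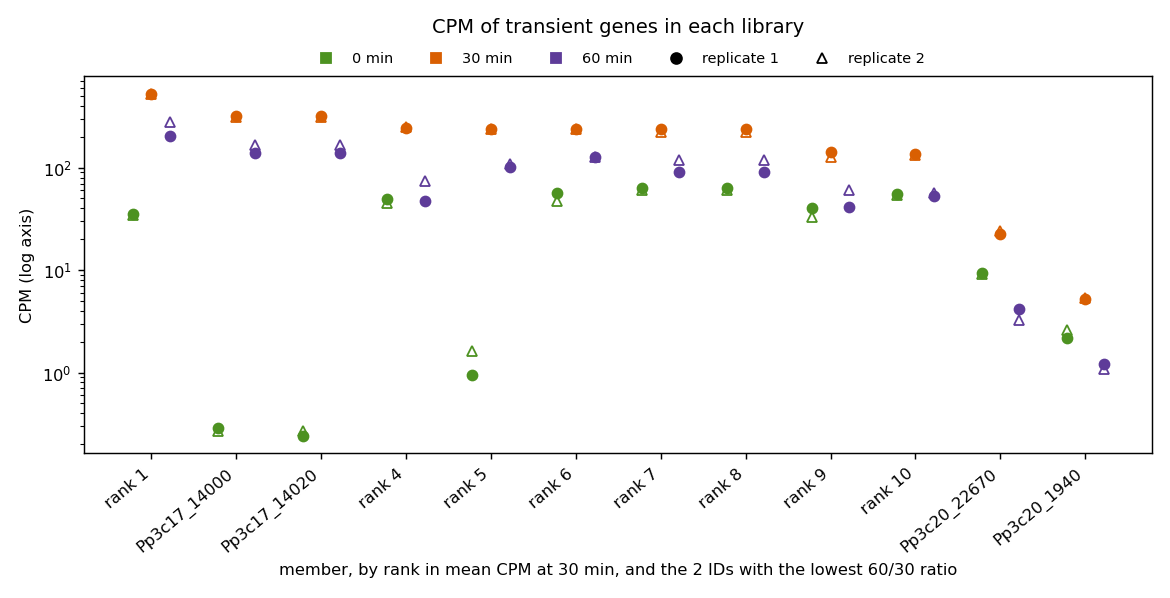
CPM on a log axis for the 10 members with the highest mean CPM at 30 minutes, in order, and for Pp3c20_22670 and Pp3c20_1940, the 2 with the lowest 60/30 ratio (horizontal axis). Colours mark the time, filled circles replicate 1 and open triangles replicate 2; the 30 minute points are highest for each gene, and the 60 minute points lie between 139 and 167 CPM for Pp3c17_14020 but at 4.19 and 3.23 CPM, below the 0 minute points, for Pp3c20_22670.

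Rises ranged widely in size. The ratio of mean CPM at 30 over 0 minutes had a median of 3.33 and quartiles of 2.13 and 5.81. It was under 3 for 44 members, from 3 up to 10 for 37 and at least 10 for 11. In the last set were 5 members with a ratio of at least 100 or no read at 0 minutes. Beside the fifth and the pair on stem Pp3c17 these were the member ranked 24, with 0.478 and 0.433 CPM at 0 minutes, 52.7 and 49.8 CPM at 30 minutes, and 26.3 and 25.1 CPM at 60 minutes, and the member ranked 76. The member ranked 76 had 0 reads in both 0 minute libraries, 5.90 and 4.45 CPM at 30 minutes, and 2.41 and 1.72 CPM at 60 minutes. Against a floor of 3 reads per library it was at least 33.9-fold higher at 30 minutes and at least 13.5-fold higher at 60 minutes than at 0 minutes.

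The fall covered a narrower range. The 60/30 ratio had a median of 0.458 and quartiles of 0.379 and 0.496, below the limit of 0.55 that the choice of members set, and 7 members had a ratio of at most 0.3. Its median was 0.449 among the 44 members with a rise under 3-fold, 0.468 among the 37 with a rise of 3- to 10-fold and 0.451 among the 11 with a larger rise. The fraction of the 30 minute level that was left therefore had similar medians in the 3 sets, whose rises had medians of 2.13, 5.19 and 32.9. The choice capped this fraction at 0.55 in each set, which limits how far apart the medians can lie. Whether the fall depends on the size of the rise was not tested. Written as an exponential decline over 30 minutes, the median member fell by 50% in 26.7 minutes, the fastest in 11.3 and the slowest in 34.5. These are net changes in relative level and no measured half-lives, since synthesis after 30 minutes was not measured.

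The 2 steepest falls belonged to Pp3c20_22670 and Pp3c20_1940. Pp3c20_22670 had 9.36 and 9.15 CPM at 0 minutes, 22.5 and 24 CPM at 30 minutes, and 4.19 and 3.23 CPM at 60 minutes. Pp3c20_1940 had 2.15 and 2.60 CPM at 0 minutes, 5.19 and 5.37 CPM at 30 minutes, and 1.21 and 1.08 CPM at 60 minutes. In both genes the 60 minute libraries lay below the 0 minute libraries without overlap. The 60/30 ratio was 0.16 for Pp3c20_22670 (exact 95% counting interval 0.129 to 0.197) and 0.216 for Pp3c20_1940 (0.144 to 0.318), on 104 and 32 reads over both 60 minute libraries.

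What the choice of members left free was where each gene stood at 60 minutes relative to 0 minutes, although the same libraries enter and a small rise followed by the required fall tends to end near or under the start. The test, edgeR's quasi-likelihood test, was run on all 18949 IDs that passed the low-count filter, all 92 members included, with calls at a Benjamini-Hochberg adjusted p under 0.05. At 60 against 0 minutes, 44 members (47.8%) were called higher, where 28.4% of all tested IDs were, and 8 members (8.7%) were called lower, where 29.5% of all tested IDs were. The other 40 had no call. These shares follow in part from the choice of members, and they are read as a description. The median log2 fold change at 60 over 0 minutes was 0.45 over the members and -0.04 over all tested IDs. For the record, 90 members were called higher at 30 than at 0 minutes (19.6% of all tested IDs) and 89 lower at 60 than at 30 minutes (18.5% of all), contrasts that the choice itself used.

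The 44 members called higher had a median of 6.66 CPM at 0 minutes, 42.6 CPM at 30 minutes and 21.1 CPM at 60 minutes. They had lost a median of 63.8% of the rise by 60 minutes. Pp3c17_14000 and Pp3c17_14020 were among them, with fitted log2 fold changes at 60 over 0 minutes of 9.05 (SE 0.22) and 9.19 (SE 0.22). They were picked for their 30/0 ratio, which favours low 0 minute values, so these are a description and no p is given. The member of most CPM was among the 44 too (2.79, SE 0.15). The rule that chose it used the same libraries, so this value is a description as well, without a p. The smallest 60/0 ratio among the 44 was 1.30.

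The 40 members with no call had medians of 4.77 CPM at 0 minutes, 12.1 CPM at 30 minutes and 5.64 CPM at 60 minutes. Of these, 38 were within 1.5-fold of the 0 minute level in either direction. The tenth member averaged 54.7 ± 1.82 CPM in the 60 minute libraries and 54.6 ± 0.955 CPM in those at 0 minutes (SD, n = 2 each), which was the closest return among the 10 members with the most CPM. For the fourth member, a log2 fold change of 0.37 (SE 0.17) missed the threshold at an adjusted p of 0.0916 in edgeR's test, with its 60 minute libraries at 47.6 and 74.3 CPM; the missed call does not show that it had returned.

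The 8 members called lower ended at 0.401 to 0.75 of their 0 minute level. Their medians were 18.7 CPM at 0 minutes, 35.1 CPM at 30 minutes and 13.7 CPM at 60 minutes, and each had risen by less than 3-fold. Pp3c20_22670 had a log2 fold change at 60 over 0 minutes of -1.32 (SE 0.17) and Pp3c20_1940 of -1.04 (SE 0.27). Both were picked for their low 60/30 ratio, so these too are a description, with no p. The highest of the 8 by CPM, ranked 18, had 35.4 and 27.5 CPM at 0 minutes, 72.9 and 61.4 CPM at 30 minutes, and 20.4 and 15 CPM at 60 minutes. The count of members called lower was the least stable: it was 5 without replicate 1 or without replicate 2 at 0 minutes, 22 with total counts in place of TMM scaling and 17 with upper-quartile factors. Over all tested IDs, 53.4% were called lower with total counts and 47.9% with upper-quartile factors. Members called higher numbered 37 and 39 under these scalings, where 14.9% and 17.4% of all tested IDs were called higher. Over all tested IDs, those scalings put the median log2 fold change at 60 over 0 minutes at -0.50 and -0.39, so each member's level at 60 minutes is relative to the scaling.

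**Figure D3:**
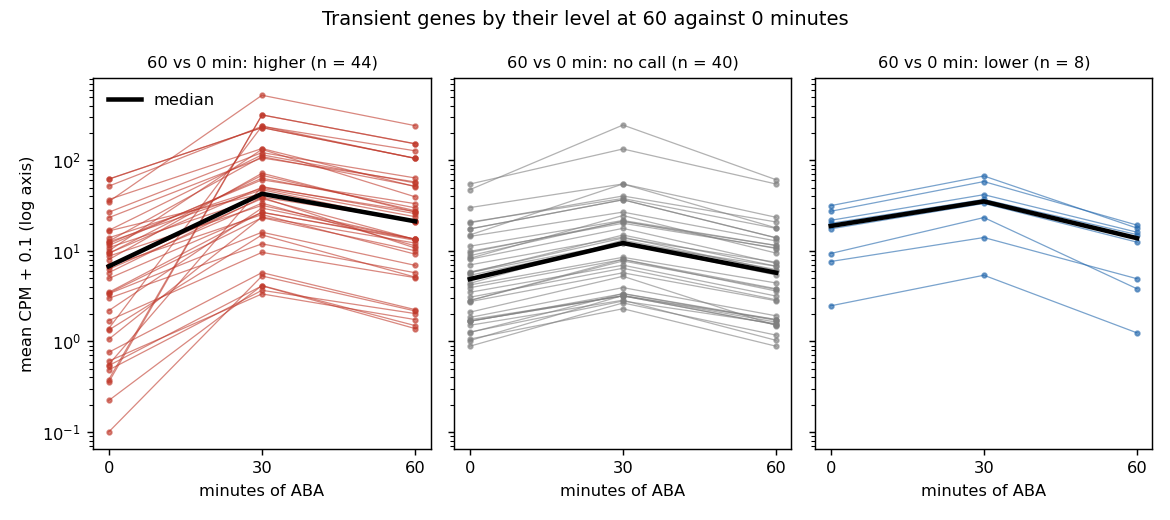
Mean CPM plus 0.1 (log axis) at 0, 30 and 60 minutes of ABA for the 92 transient IDs, 1 thin line each, in panels by the edgeR call at 60 against 0 minutes; the black line is the median. The 44 called higher keep a median of 21.1 CPM at 60 minutes, the 40 with no call end at 5.64 CPM and the 8 called lower at 13.7 CPM, against 6.66, 4.77 and 18.7 CPM at 0 minutes.

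By size of rise, 11 of 11 members with a rise of at least 10-fold, 32 of 37 with 3- to 10-fold and 1 of 44 with less were called higher at 60 than at 0 minutes, where 28.4% of all tested IDs were. Among the other early risers, which had not met the fall, the same call was made for 440 of 440, 554 of 554 and 780 of 816 IDs in these sets. The sets were cut by the rise, and the limit on the 60/30 ratio divided members from the other early risers. Both enter the level at 60 over 0 minutes, so these counts follow in part from the choice and are a description. Over all members the share of the rise lost by 60 minutes had a median of 81.4% and quartiles of 66.1% and 101%. It exceeded 100% for 23 members and was at least 90% for 36. In the set with rises of at least 10-fold the median loss was 57.7% and the greatest 75.8%. Within 1.5-fold of the 0 minute level lay 45 members, above that range 42 and below it 5. The means at 0 and 30 minutes enter both the rise and the share lost, so the link between them is a description.

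**Figure D4:**
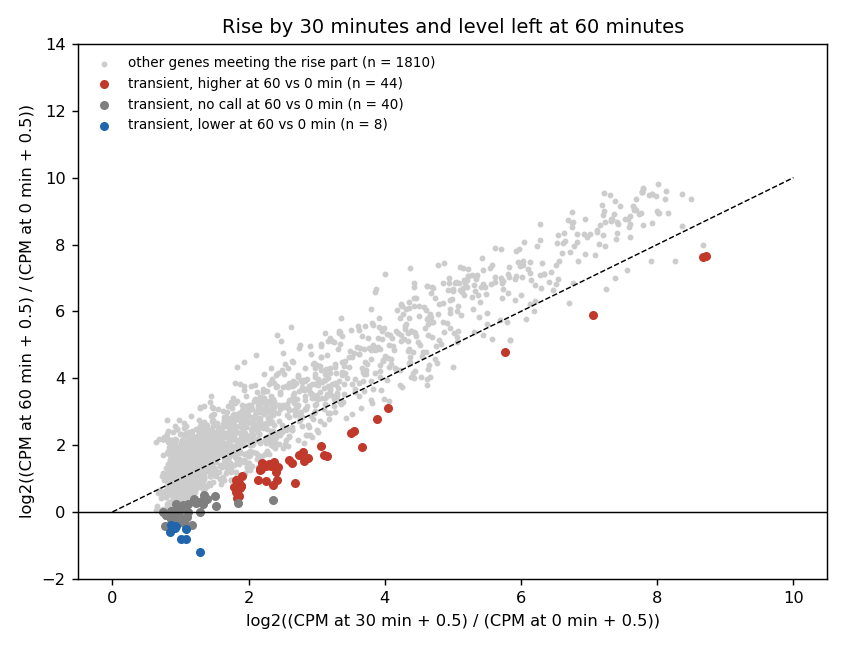
Log2 ratio of CPM plus 0.5 at 30 over 0 minutes (horizontal axis) and at 60 over 0 minutes (vertical axis) for the 92 transient IDs, coloured by the call at 60 against 0 minutes, and for the 1810 other IDs that met the requirements on the rise (grey). The dashed line marks equal levels at 30 and 60 minutes and the solid line the 0 minute level; the transient IDs lie below the dashed line, as their choice requires, with 44 called above the solid line and 8 called below it.

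By level at 0 minutes, 24 members had under 2 CPM, 38 had 2 to 10 CPM, 26 had 10 to 50 CPM and 4 had more. The median ratio of 30 over 0 minutes in these sets was 6.19, 2.86, 3.07 and 3.71. At 60 over 0 minutes the medians were 3.01, 1.31, 1.25 and 1.70. The members of lowest starting level thus had the highest median at both times, but 11 of the 24 had no call at 60 against 0 minutes. The 0 minute libraries define these sets and also enter each ratio, so noise in them favours this order.

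The replicates of the members were closest at 30 minutes. The coefficient of variation between the 2 libraries had a median of 8.66% at 0 minutes, 4.65% at 30 minutes and 12.1% at 60 minutes. The choice of members put their highest CPM at 30 minutes and required both 30 minute libraries to lie above the other libraries. Whether the choice lowered the value at 30 minutes was not tested, and no such values were computed over all tested IDs. At 30 minutes 60 members (65.2%) were higher in replicate 1, as were 54.1% of all tested IDs. The first 10 are not 10 separate measurements, since the seventh and eighth share their counts and the pair on stem Pp3c17 nearly does. Of these 10, 8 were higher in replicate 1 at 30 minutes. At 0 minutes 8 of them were too, where 50.5% of all tested IDs were. At 60 minutes 59 members were higher in replicate 2 and 33 (35.9%) higher in replicate 1, and 10 of the first 10 were higher in replicate 2, with a median log2 ratio of replicate 1 over 2 of -0.33 (0.5 CPM added). Of the 1810 other IDs that met the requirements on the rise, 37.6% were higher in replicate 1, and of all tested IDs 49.1%. With total counts in place of TMM these shares were 52.2% for the members, 56.9% for the other early risers and 65.9% for all tested IDs, and 3 of the first 10 were higher in replicate 1. The members and the other early risers thus had smaller shares higher in replicate 1 than all tested IDs had, under both scalings. The 8 members called lower at 60 against 0 minutes went the other way, with 6 of them higher in replicate 1 under TMM. What set the 2 libraries apart was not tested.

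**Figure D5:**
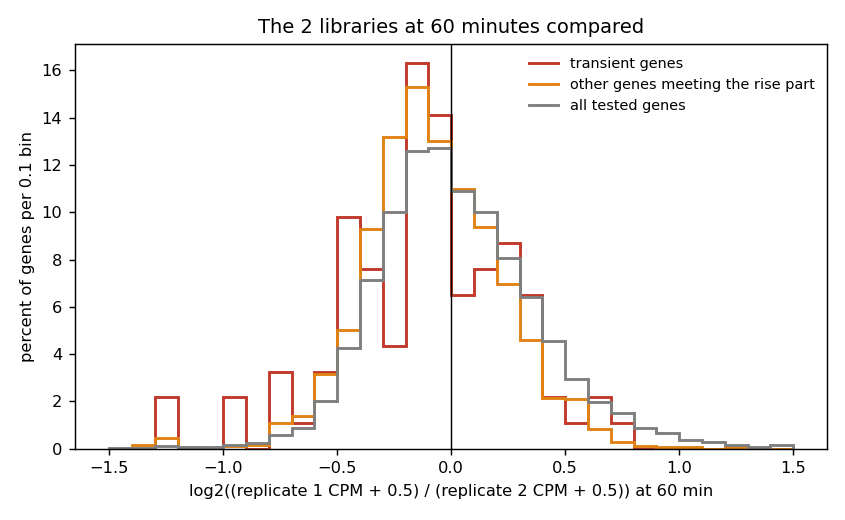
Percent of genes (vertical axis, bins of 0.1) by the log2 ratio of replicate 1 over replicate 2 CPM at 60 minutes, with 0.5 CPM added, for the 92 transient IDs, the 1810 other IDs that met the requirements on the rise and all 18949 tested IDs; the end bins also hold values beyond the axis. The transient IDs have 35.9% of their values above 0, the other early risers 37.6% and all tested IDs 49.1%.

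Some IDs do not stand for separate measurements. Identical counts in all 6 libraries were shared by 6 members, in 3 pairs of which both IDs were members, so that 89 distinct sets of counts stood behind the 92 IDs. This was 6.52% of the members, and 1.67% of the 18717 tested IDs with at least 50 reads also had such a twin. With the pair on stem Pp3c17, 8 members had a partner whose counts matched within 5% plus 2 reads. Counting identical IDs once left 43 members called higher and 8 called lower at 60 against 0 minutes. Overlapping gene models and near-identical copies cannot be told apart from these files. By ID stem (Pp3c17, for example), members came from 26 stems with at most 9 on any stem. In 5 pairs the members shared a stem with ID numbers at most 100 apart, and 4 of these were the pairs with matching counts. The remaining pair, ranked 68 and 70, came close to matching. Both members had 52 and 55 reads at 0 minutes. At 30 minutes they had 149 and 101 reads against 149 and 93, and at 60 minutes 38 and 66 against 36 and 66. The same reads may have been counted for this pair too.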

How the data were processed

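The authors deposited 1 table of raw read counts per gene for each of 6 libraries, whole numbers with a different total in each. Per the submitters' processing notes, cutadapt, TopHat, HTSeq and DESeq2 were used, without versions or roles; the sources used here give no genome build, annotation or strand setting. The 5 summary rows (reads in no gene, 1.662% to 2.137% of a library's total; the others 0) entered neither library sizes nor tests. IDs were filtered with edgeR 4.0.16 (R 4.3.3) filterByExpr (minimum count 10, minimum total 15), which kept 18949. CPM is the count per 1000000 of the library's gene total times its TMM factor. Tests used edgeR's quasi-likelihood fit (estimateDisp, glmQLFit, glmQLFTest) of the 3 times to all 6 libraries, adjusted over all tested IDs; the SE is the log2 fold change over the square root of F. The p-values judge a difference between times against the spread between replicate libraries. That spread was estimated from all 6 libraries together, with information shared across IDs, and rests on 2 cultures a time. DESeq2 1.42.0 and limma 3.58.1 (voom) were alternatives. The code was tested on simulated data.

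The members, sets and lists were chosen with earlier results of these data known. Printed IDs follow a rule: the 2 members with the highest 30/0 ratio among those with at least 3 reads in each 0 minute library, and the 2 others with the lowest 60/30 ratio. Members ranked 1 to 10 by mean CPM at 30 minutes are described in full. Those ranked 18, 24, 68, 70 and 76 were picked after their values were seen. Replicates of 1 time correlated with r of 0.989 to 0.995 on log2(CPM + 1) and were counted as separate samples.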

Additional observations from a re-analysis of the deposited data

Results flagged for a closer look

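Reads in no annotated gene, which enter no comparison above, made up more of each treated library than of either 0 minute library: 1.987% and 2.036% at 30 minutes and 2.137% and 1.726% at 60 minutes, against 1.671% and 1.662% at 0 minutes. For 89 of the 92 members the effect at 60 minutes differed from that at 30 minutes (called lower at 60 than at 30 minutes by edgeR's quasi-likelihood F test), which their choice brought about.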

How the results depend on the processing

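The number of members depended most on the limits and the scaling. It was 160 with total counts alone (79 of the 92 among them), 60 with ratios of 2 and 0.5, and 251 with ratios of 1.5 and 0.67. It lay between 89 and 107 with 1 library left out (in the tests, the lone library of that time was assumed to vary like the others), and 58 of the 92 were found with each of the 6 left out in turn. Members called lower at 60 against 0 minutes numbered 22 with total counts, 17 with upper-quartile factors and 5 to 10 with 1 library left out; of all tested IDs, 53.4% were called lower with total counts and 47.9% with upper-quartile factors, against 29.5% with TMM. Members called higher ranged from 37 to 46 over all alternatives. The median share of the rise lost was 101% with total counts and 95.8% with upper-quartile factors, and 76.7% to 83.1% with 1 library left out. Of 137 alternative values, 128 kept their direction and call or stayed within 1.5 times the count, and 9 moved. For the median share lost, the limit was the SD between replicates (5.37 percentage points). The tally includes calls in the contrasts that the choice used and fold changes of the printed IDs, which were picked by their ratios. Those values were likely to stay, so the tally overstates how stable the other results were.

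With the replicate number as a block, 45 members were called higher and 10 lower at 60 against 0 minutes, and 92 and 91 in the contrasts the choice used. No label ties a replicate number to a common culture or day, and deviations of same-numbered libraries correlated with r of -0.06 (0 and 30 minutes), 0.02 (0 and 60) and 0.26 (30 and 60) across genes, so the block was not used for pairing. Depth limits the members of few reads: those with 2 to 10 CPM at 30 minutes rest on as few as 29 reads in a 30 minute library. In the other libraries, which enter the calls at 60 against 0 minutes, they had as few as 9 reads at 60 minutes and 0 at 0 minutes.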
